A study of Homo sapiens with 30 samples.

Results

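Cancer-testis antigens are proteins that are normally made by germ cells of the testis, are silent in most other adult tissues and are made again in many tumours, melanoma above all. Most of their genes lie on the X chromosome as families of recent copies, and methylation of DNA at their promoters is the best known means of their silencing. Peptides cut from them are shown to T cells on HLA molecules, which is why MAGE, PRAME and NY-ESO-1 proteins have served as targets of vaccines and T cell therapies. The genes described here were those whose symbol is PRAME or begins with MAGEA, MAGEB, MAGEC, GAGE, PAGE, XAGE, SSX, SPANX, CTAG or VCX in the way these families are named. The rule took 92 of the 26364 genes listed in the deposited files. It also took in SSX2IP, which codes for a centrosome and adhesion protein that binds SSX2 and is no cancer-testis antigen, so that counts are given with it and, where it matters, without it.

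RNA was sequenced from A375, an established human melanoma line, as polyadenylated RNA in 30 libraries, 3 in each of 10 groups. The cells had been sorted by an antibody into those without and those with surface integrin β4 (ITGB4, a subunit of the laminin receptor of hemidesmosomes), called negative and positive below, and the groups differ in what the cells had done on membranes with 5 µm pores. Parental cells had crossed nothing. Top10 cells had failed to cross in 10 rounds and Bottom10 cells had crossed in 10 rounds, and both were collected as negative and as positive cells. Bottom5 negative cells came from 5 rounds of crossing and Top5 positive cells from the upper side after 5 rounds. Presorted cells were sorted before crossing: the negative ones then crossed for 4 rounds and the positive ones for 5. All groups share the line and the medium, the titles number the libraries of each group 1 to 3, and the labels name them as biological replicates. They do not tell if separate sorts or passages lie behind them, so that p values measure the spread between these libraries. The gate was set on protein: ITGB4 RNA of each positive library exceeded that of the negative library with its number in the parental, Top10 and Bottom10 cells, but passed the test in none of the 3 comparisons (log2 fold change 1.85 ± 0.87 SE, 1.97 ± 0.88 and 1.41 ± 0.85, each with an adjusted p of 1).

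Libraries held between 14258919 and 29134945 counts on genes, so that 1 count was worth 0.0332 to 0.0802 counts in 1000000 gene counts (CPM). All 92 genes together took 0.138 to 0.291% of the gene counts, with a median of 0.177%. Between 7.8 and 13.3% of reads in a library matched more than 1 place in the genome and were counted to no gene, which bears on families of near-identical copies. Levels are CPM scaled by TMM library factors, and values in 1 group are given in the order of replicates 1, 2 and 3. Across groups ITGB4 RNA did not follow the names of the sorts. It read 24.6, 33.7 and 25.1 CPM in parental negative and 20.4, 56.5 and 9.84 CPM in Top10 positive libraries. Presorted negative libraries read 322, 27.2 and 56.4 CPM and Bottom5 negative ones 157, 51 and 51 CPM. Neither group passed against parental negative cells (2.28, adjusted p = 0.164, and 1.63, adjusted p = 0.611). The melanoma identity of the cells rests on SOX10 (287 to 1460 CPM), MITF (23.2 to 66.3 CPM) and PAX3, while the pigment enzyme TYR was at 0 in 28 libraries. Of the same list, PMEL, MLANA, DCT and TYRP1 were also low, with medians of 0.868, 0.173, 0.854 and 0.157 CPM. TFAP2A, S100A1, S100B, ERBB3 and CSPG4 had medians of 22.2, 38, 40.7, 400 and 881 CPM. The 12 germ cell genes that were followed, such as the sperm protamine PRM1 and the meiosis inducer STRA8, summed to between 0 and 0.721 CPM, and TNP2, PRM1 and STRA8 were at 0 in all 30 libraries. CD3E and MS4A1 of lymphocytes were at 0 in all 30 as well. The 8 immune genes followed summed to between 28.7 and 158 CPM, led by CD68 (22.5 to 155 CPM) and LYZ (2.16 to 11.5 CPM). The summed markers of fibroblasts ranged from 20.9 to 58.1 CPM, led by PDGFRB, and those of keratinocytes from 68.8 to 229 CPM, most of it KRT10.

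A principal component analysis set 6 libraries apart on the second component, which held 21.2% of the variance (scores above 30). They were Top10 negative 1, Bottom10 positive 3, presorted negative 2, Bottom5 negative 2 and Top5 positive 1 and 3. In them 1.85 to 2.27% of reads fell in more than 1 gene, against 1.54 to 1.74% in the other 24 libraries. The antigens were high in 4 of these libraries, those whose group held 1 of them: of the 24 tested antigen genes without SSX2IP, 16 were highest of their 3 replicates in Top10 negative 1, 19 in Bottom10 positive 3, 18 in presorted negative 2 and 20 in Bottom5 negative 2. Over all 15381 genes tested, the same libraries were highest for 31.4%, 40.5%, 40.6% and 32.9%. The part of this difference between libraries in the results was not tested beyond refits without these 6 libraries, which stand beside the results they touch.

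Of the 92 genes, 36 had no count in any library, 56 had at least 1 and 25 passed the filter on low counts. By family, the filter passed 8 of 15 MAGEA genes, 1 of 10 MAGEB, 2 of 3 MAGEC, 2 of 22 GAGE, 3 of 6 PAGE, 1 of 11 SPANX, 1 of 11 SSX, 1 of 3 CTAG, all 4 VCX, none of 5 XAGE, PRAME and SSX2IP. The 36 genes at 0 in every library included both copies of several pairs that are nearly the same in sequence: CTAG1A and CTAG1B (which code for NY-ESO-1), MAGEA9 and MAGEA9B, SSX4 and SSX4B, SSX2 and SSX2B, and SPANXA1 and SPANXA2. They also held 16 of the 22 GAGE genes, MAGEA2B, MAGEA5, PAGE4, SPANXC, SPANXN4, SPANXN5, SSX7, SSX9, XAGE1B and XAGE1E. A count of 0 allows up to 0.0995 to 0.24 CPM, depending on the library, for reads that match 1 place, and reads shared by 2 copies would have gone uncounted. The 31 genes with counts below the filter held at most 105 counts in all libraries together (MAGEB6). They were MAGEB1, MAGEB3, MAGEB4, MAGEB5, MAGEB6, MAGEB10, MAGEB16, MAGEB17 and MAGEB18, MAGEC3, MAGEA8, MAGEA8-AS1 and the read-through MAGEA10-MAGEA5, GAGE2B, GAGE2E, GAGE10 and GAGE12J, PAGE2B and PAGE3, SPANXD, SPANXN1, SPANXN2, SPANXN3 and SPANXA2-OT1, SSX3, SSX5, SSX6 and SSX8, and XAGE2, XAGE3 and XAGE5.

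The bulk of antigen RNA came from few genes, and these did not pass the test in any of the 13 comparisons except MAGEA10 in 1. MAGEA4 alone made up 40.3 to 51% of the counts on the 92 genes, and the 8 most abundant together 84.8 to 93.3%. Per kilobase of exon, mean MAGEA4 stood at 376 CPM per kilobase, PAGE5 at 170, MAGEC2 at 70.3, MAGEA3 at 68.2, PAGE2 at 58.1 and PRAME at 55.4. This scale allows for gene length but not for reads shared by near copies, which went uncounted. Levels of genes with near copies, such as MAGEA3, may therefore read too low beside the others.

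MAGEA4, which binds the ubiquitin ligase RAD18 and is the target of a licensed T cell therapy, read 619, 765 and 813 CPM in the parental negative libraries and 811, 885 and 708 CPM in the parental positive libraries. Across the pores it read 1068, 703 and 887 CPM in the Top10 negative libraries and 783, 664 and 824 CPM in the Bottom10 negative libraries and 809, 667 and 857 CPM in the Top10 positive libraries and 740, 547 and 1163 CPM in the Bottom10 positive libraries. It read 676, 1657 and 849 CPM in the presorted negative libraries and 745, 822 and 834 CPM in the presorted positive libraries. MAGEA4 read 579, 1117 and 830 CPM in the Bottom5 negative libraries and 1212, 758 and 1253 CPM in the Top5 positive libraries. The highest values were presorted negative 2, Top5 positive 1 and 3, Bottom10 positive 3, Bottom5 negative 2 and Top10 negative 1, the 6 libraries that stood apart, and the other 24 libraries overlapped across groups. Its group means spanned 1.47-fold, and its smallest adjusted p in 13 comparisons was 0.32.

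PRAME, which acts as a substrate receptor of a cullin ubiquitin ligase and represses retinoic acid signalling, had group means between 140 and 190 CPM. It read 216, 166 and 144 CPM in the parental negative libraries and 171, 155 and 184 CPM in the parental positive libraries. PRAME read 197, 178 and 169 CPM in the Top10 negative libraries and 192, 157 and 168 CPM in the Top10 positive libraries and 199, 183 and 188 CPM in the Bottom10 negative libraries and 171, 130 and 151 CPM in the Bottom10 positive libraries. After fewer rounds it read 186, 114 and 179 CPM in the presorted negative libraries and 186, 171 and 161 CPM in the presorted positive libraries. PRAME read 143, 147 and 140 CPM in the Bottom5 negative libraries and 137, 150 and 132 CPM in the Top5 positive libraries. Unlike MAGEA4, PRAME was lowest in presorted negative 2 (114 CPM) and had no common high value in the libraries that stood apart.

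MAGEC2, a partner of the corepressor and ligase TRIM28, read 125, 118 and 122 CPM in the parental negative libraries and 124, 133 and 125 CPM in the parental positive libraries. MAGEC2 read 168, 146 and 132 CPM in the Top10 negative libraries and 140, 133 and 134 CPM in the Top10 positive libraries. MAGEC2 read 144, 130 and 140 CPM in the Bottom10 negative libraries and 122, 108 and 165 CPM in the Bottom10 positive libraries. Its other values were 126, 267 and 134 CPM in the presorted negative libraries and 122, 138 and 128 CPM in the presorted positive libraries. MAGEC2 read 113, 175 and 136 CPM in the Bottom5 negative libraries and 185, 119 and 155 CPM in the Top5 positive libraries. Outside presorted negative 2 all values stayed within 108 to 185 CPM. PAGE5, of the PAGE family that is related in sequence to GAGE, read 91.4, 102 and 87.8 CPM in the parental negative libraries and 93.7, 99.2 and 102 CPM in the parental positive libraries. PAGE5 read 153, 93 and 97.7 CPM in the Top10 negative libraries and 116, 96.8 and 105 CPM in the Top10 positive libraries. PAGE5 read 119, 99.5 and 105 CPM in the Bottom10 negative libraries and 110, 93.9 and 164 CPM in the Bottom10 positive libraries. It reached 102, 357 and 116 CPM in the presorted negative libraries and 278, 98.7 and 163 CPM in the Top5 positive libraries, against 117, 135 and 113 CPM in the presorted positive libraries and 95.9, 178 and 95.8 CPM in the Bottom5 negative libraries. The 2 highest PAGE5 values, 357 and 278 CPM, belong to presorted negative 2 and Top5 positive 1, the 2 libraries with the largest share of reads matching more than 1 place (12.6 and 13.3%).

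MAGEA3, MAGEA6 and MAGEA12 code for closely related proteins, and MAGEA3 and MAGEA6 are nearly the same in sequence, so that their single counts are uncertain. MAGEA3 read 77.8, 122 and 119 CPM in the parental negative libraries and 109, 130 and 96.3 CPM in the parental positive libraries. MAGEA3 read 125, 90.3 and 127 CPM in the Top10 negative libraries and 96, 93.9 and 133 CPM in the Top10 positive libraries. MAGEA3 read 102, 82.3 and 126 CPM in the Bottom10 negative libraries and 83.7, 82.8 and 205 CPM in the Bottom10 positive libraries. It read 93.7, 230 and 127 CPM in the presorted negative libraries and 94.9, 106 and 121 CPM in the presorted positive libraries. MAGEA3 read 74.3, 180 and 128 CPM in the Bottom5 negative libraries and 166, 127 and 207 CPM in the Top5 positive libraries. The parental, Top10 and Bottom10 groups of MAGEA3 overlapped in both sorts. MAGEA6 followed with 57.1, 93.8 and 99.6 CPM in the parental negative libraries and 93, 110 and 78.5 CPM in the parental positive libraries. MAGEA6 read 99.9, 64.5 and 108 CPM in the Top10 negative libraries and 75.2, 67.9 and 110 CPM in the Top10 positive libraries. MAGEA6 read 77.5, 61.2 and 102 CPM in the Bottom10 negative libraries and 65.1, 60.6 and 163 CPM in the Bottom10 positive libraries. MAGEA6 further read 69.6, 149 and 102 CPM in the presorted negative libraries and 74.1, 88.6 and 92.5 CPM in the presorted positive libraries. MAGEA6 read 50.9, 133 and 103 CPM in the Bottom5 negative libraries and 110, 102 and 172 CPM in the Top5 positive libraries. In Bottom10 positive, presorted negative, Bottom5 negative and Top5 positive cells MAGEA6 was highest in the same library as MAGEA3, 1 of those that stood apart. MAGEA12 read 66.4, 103 and 106 CPM in the parental negative libraries and 101, 111 and 85.2 CPM in the parental positive libraries. MAGEA12 read 112, 78.4 and 105 CPM in the Top10 negative libraries and 86.7, 86.4 and 109 CPM in the Top10 positive libraries. MAGEA12 read 92.2, 72.5 and 106 CPM in the Bottom10 negative libraries and 77.6, 70.7 and 148 CPM in the Bottom10 positive libraries. Its remaining values were 82.7, 170 and 107 CPM in the presorted negative libraries and 81.4, 102 and 98.6 CPM in the presorted positive libraries. MAGEA12 read 66.5, 137 and 109 CPM in the Bottom5 negative libraries and 113, 110 and 156 CPM in the Top5 positive libraries. None of the 3 genes passed the test, with smallest adjusted p values of 0.368 (MAGEA3), 0.499 (MAGEA6) and 0.47 (MAGEA12) over 13 comparisons.

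**Figure D1:**
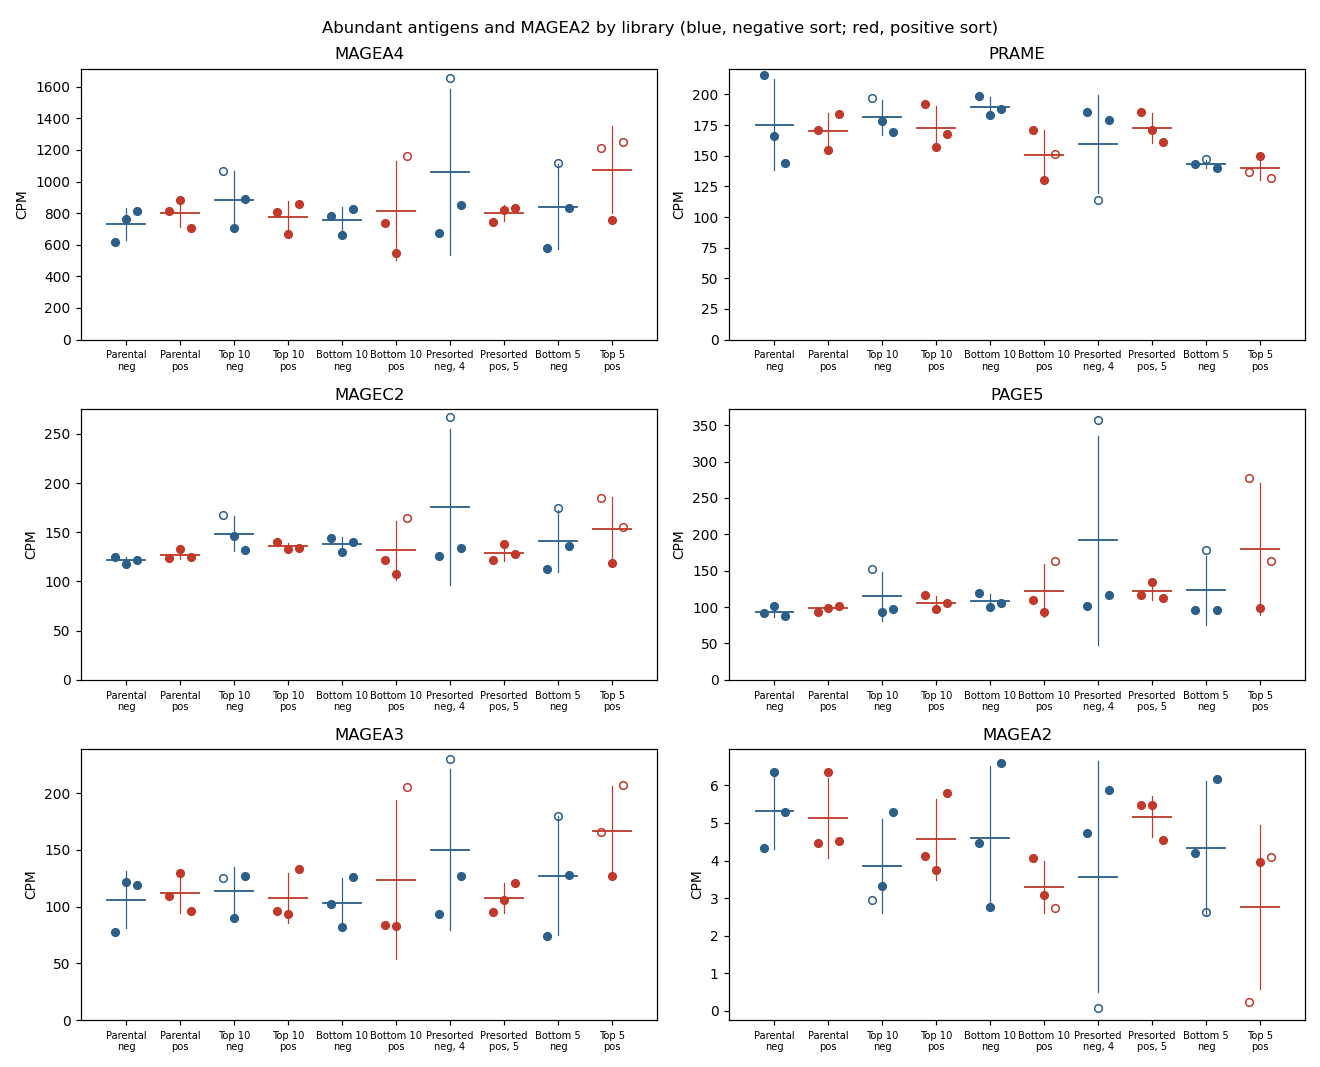
CPM (y axis, linear) of 5 abundant antigens and of MAGEA2 in the 30 libraries, by group on the x axis; points are libraries in the order of replicates 1 to 3, open where the library is 1 of the 6 that stood apart, horizontal lines are group means and vertical lines ± 1 SD (n = 3). MAGEA4 stays between 547 and 1657 CPM in all groups, its highest points are open ones, and MAGEA2 falls to 0.0764 and 0.24 CPM in 2 open points.

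Among the less abundant genes, which passed the filter but of which each is given by its range of group means, MAGEA11, a coregulator of the androgen receptor, lay between 25.9 and 39.9 CPM, PAGE2 between 23.1 and 54.1, SSX2IP between 29.8 and 39.1 and MAGEA2 between 2.76 and 5.32. MAGEB2 had group means of 0.499 to 6.82 CPM, MAGEC1 of 0.301 to 2.01, GAGE1 of 0.742 to 2.88 and SSX1, a transcriptional repressor whose gene is fused to SS18 in synovial sarcoma, of 0.394 to 1.47. None of these 8 passed the test of edgeR in the 13 comparisons with all libraries and no block. DESeq2 without a block called MAGEB2 (2.43, adjusted p = 0.0432) and MAGEC1 (2, adjusted p = 0.0132) in Bottom10 against Top10 negative cells. In the positive sort it called MAGEA11 (0.507, adjusted p = 0.0472). Without Top10 negative 3, edgeR called MAGEC1 in the negative sort (3.12, adjusted p = 0.00557). With the replicate block MAGEB2, MAGEC1 and SSX1 passed in Bottom10 against Top10 cells, as given below.

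The 10 groups gave 13 comparisons, each tested over all 15381 genes, and 10 members passed in at least 1 of them, with 25 calls in all, and 15 members passed in none. Over all genes, 8.2% of the 199953 tests in these comparisons had an unadjusted p under 0.05. Of the same tests edgeR called 0.493% and DESeq2 called 2479. For unadjusted p values and DESeq2 in a single comparison the share of all genes is not given below. The same holds for refits other than the replicate block in the compared groups. Bottom10 against Top10 asks how cells that crossed differ from cells that stayed. In the positive sort 7 of 25 members passed, 6 higher and 1 lower in Bottom10, which is 28% against 0.943% of all genes (0.631% higher and 0.312% lower). The median log2 fold change of the 25 was 0.52 and that of all genes 0.034. The 7 include the VCX genes, which are near copies of each other. With near-identical copies summed, 3 of 20 tested members passed in this comparison. The same comparison in the negative sort passed 2 of 25, both higher, against 1.33% of all genes (0.949% higher), with medians of 0.26 and -0.0057. With copies summed, 1 of 20 passed there. Values of the 3 and 3 libraries did not overlap for 15 members in the positive sort, against 15.2% of all genes, and for 11 in the negative sort, against 16.1%.

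**Figure D2:**
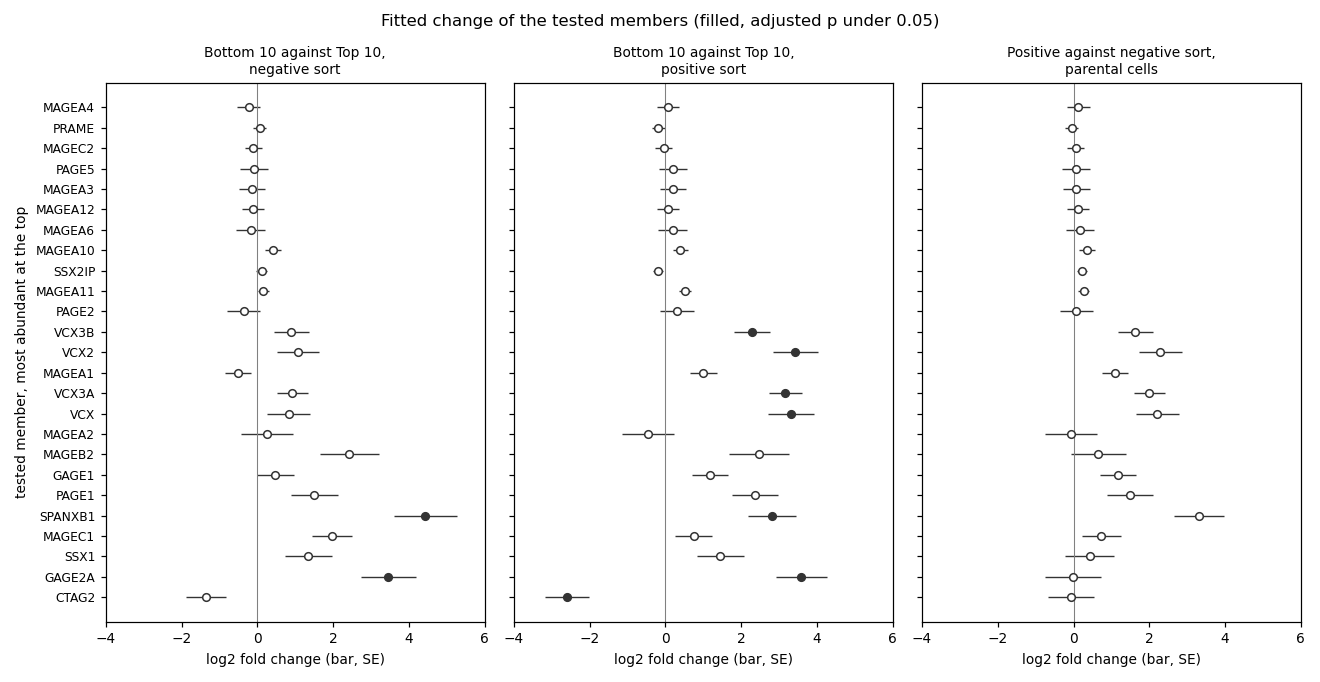
Log2 fold change (x axis) of the 25 tested members, ordered by mean CPM along the y axis, in Bottom10 against Top10 cells of either sort and in the positive against the negative sort of parental cells; bars are ± 1 SE and filled points have an adjusted p under 0.05. The abundant genes at the top lie near 0 in all 3 panels, and the filled points, VCX genes, SPANXB1, GAGE2A and CTAG2, lie in the lower rows.

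The 4 VCX genes took 11 of the 25 calls. VCX genes (variable charge, X-linked) code for small, highly charged proteins made in male germ cells, and the genes are recent copies of each other on the short arm of the X chromosome. The 250 bases before the start of each gene, from RefSeq on GRCh38.p14, are shown because 3 of the 4 start windows are almost the same next to the start, while they differ further upstream. Capitals mark the 87 bases at the 3′ end that VCX2, VCX3A and VCX3B share, a run that no other of the 35116 promoter windows holds.
VCX2, chrX:8171268-8171517, minus strand: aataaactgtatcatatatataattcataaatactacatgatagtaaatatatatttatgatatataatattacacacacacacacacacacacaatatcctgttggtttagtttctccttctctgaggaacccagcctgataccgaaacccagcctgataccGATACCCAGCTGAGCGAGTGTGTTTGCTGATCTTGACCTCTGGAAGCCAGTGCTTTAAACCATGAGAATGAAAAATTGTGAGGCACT
VCX3A, chrX:6535119-6535368, minus strand: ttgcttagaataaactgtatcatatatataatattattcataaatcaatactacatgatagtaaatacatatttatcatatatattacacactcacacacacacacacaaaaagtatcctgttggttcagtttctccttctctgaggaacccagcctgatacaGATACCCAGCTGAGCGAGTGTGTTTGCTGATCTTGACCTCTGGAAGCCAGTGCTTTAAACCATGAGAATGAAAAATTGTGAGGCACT
VCX3B, chrX:8464580-8464829, plus strand: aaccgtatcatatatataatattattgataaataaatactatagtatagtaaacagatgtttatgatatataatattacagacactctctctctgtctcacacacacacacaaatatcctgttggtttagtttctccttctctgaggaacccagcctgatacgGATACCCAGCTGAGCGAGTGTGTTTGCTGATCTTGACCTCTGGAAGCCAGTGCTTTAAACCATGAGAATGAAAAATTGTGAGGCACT
Over the last 100 bases each pair of these windows was 99% identical. The window of VCX was unlike them, with 25% identity to that of VCX2 over the last 100 bases. Bases were compared place by place without gaps, back from each annotated start. Whether the start of VCX lies at the place that matches those of its copies was not tested. The VCX window shared 2 words of 12 bases, in capitals, with the window of SPANXB1, a gene on the long arm.
VCX, chrX:7842921-7843170, plus strand: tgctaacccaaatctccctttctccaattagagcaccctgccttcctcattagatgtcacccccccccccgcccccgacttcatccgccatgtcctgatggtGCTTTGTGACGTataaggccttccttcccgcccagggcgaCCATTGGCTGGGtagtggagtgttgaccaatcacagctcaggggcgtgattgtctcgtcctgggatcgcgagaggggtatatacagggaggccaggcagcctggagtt
SPANXB1, chrX:141002344-141002593, plus strand: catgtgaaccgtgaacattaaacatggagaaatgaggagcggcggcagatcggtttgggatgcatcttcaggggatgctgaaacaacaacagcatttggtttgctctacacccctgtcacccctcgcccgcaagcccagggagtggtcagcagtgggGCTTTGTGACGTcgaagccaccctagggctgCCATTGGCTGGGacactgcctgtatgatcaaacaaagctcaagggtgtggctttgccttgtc
On the strand of the gene as printed or on the other, GCTTTGTGACGT occurred in 10 of the 35116 windows (0.0285%) and CCATTGGCTGGG in 28 (0.0797%), the latter also in SPANXA1, SPANXA2, SPANXC, SPANXN1, SPANXN2, SPANXN3 and SPANXN5, none of which passed the filter. The shorter TGACGT, part of the first word and the core of a cyclic AMP response element, was in 7.1% of all windows and in 6 of the 30 of tested members. VCX2 and VCX3B had 3 CG pairs in 250 bases and VCX3A 1, against 10 in VCX, 8 in SPANXB1, a median of 9 over the 30 windows of tested members and a median of 11 over all windows. These words are descriptions of sequence and were not tested as sites.

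In the positive sort all 4 VCX genes were higher in cells that crossed for 10 rounds than in cells that stayed. In bulk RNA, here and below, fewer cells that express a gene and less of its RNA per cell cannot be told apart. VCX2 read 1.93, 2.66 and 2.41 CPM in the Top10 positive libraries and 19.9, 20.3 and 35.4 CPM in the Bottom10 positive libraries, a rise of 10.8-fold (log2 fold change 3.43 ± 0.60 SE, adjusted p = 0.00355). VCX3A read 1.25, 2 and 1.48 CPM in the Top10 positive libraries and 12.1, 10.8 and 19.8 CPM in the Bottom10 positive libraries, a rise of 9-fold (log2 fold change 3.17 ± 0.43 SE, adjusted p = 0.00024). Each Bottom10 value of these genes was above each Top10 value, and the highest was replicate 3, a library that stood apart. VCX read 1.12, 1.4 and 0.984 CPM in the Top10 positive libraries and 8.16, 9.35 and 17.4 CPM in the Bottom10 positive libraries, a rise of 9.92-fold (adjusted p = 0.00505), and VCX3B read 7.69, 11.4 and 6.54 CPM in the Top10 positive libraries and 32.5, 44.1 and 47.8 CPM in the Bottom10 positive libraries, a rise of 4.85-fold (adjusted p = 0.0166). Without the 6 libraries that stood apart the log2 fold changes were 3.09, 2.85, 2.89 and 2.15, and all 4 still passed. VCX3B lost the call without Top10 positive 1 or 3 or Bottom10 positive 2 or 3 (2.12 to 2.23), and the other 3 kept it without each of the 6 libraries. Since the 4 genes are near copies, they were also counted as 1: the sum rose by a log2 fold change of 2.76 ± 0.49 SE (adjusted p = 0.00447).

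Against the parental positive cells, 3 VCX genes were lower in Top10 and none passed in Bottom10. Parental positive cells read 27.5, 26.8 and 24.3 CPM of VCX2, 18.2, 14.4 and 12.8 CPM of VCX3A, 13.2, 10.8 and 11.6 CPM of VCX and 33.5, 28.3 and 42.6 CPM of VCX3B, close to the Bottom10 positive values. Against them Top10 positive cells were lower by 11.2-fold in VCX2 (log2 fold change -3.49 ± 0.60 SE, adjusted p = 0.00495), 9.6-fold in VCX3A (log2 fold change -3.26 ± 0.43 SE, adjusted p = 0.000189) and 10.1-fold in VCX (log2 fold change -3.34 ± 0.60 SE, adjusted p = 0.00765). VCX3B missed the threshold (log2 fold change -2.03 ± 0.47 SE, adjusted p = 0.0611) and passed without the 6 libraries that stood apart (-2.04, adjusted p = 0.00784). VCX2 lost the call without Top10 positive 1 (-3.37) and VCX without any of the 3 Top10 positive libraries (-3.5 to -3.23). In all, 6 of 25 members passed in Top10 positive against parental positive cells, 1 higher and 5 lower, which is 24% against 0.384% of all genes (0.0585% higher and 0.325% lower). With near-identical copies summed, 3 of 20 tested members passed. Bottom10 against parental positive cells gave log2 fold changes of -0.027, -0.058, -0.092 and 0.25 for VCX, VCX2, VCX3A and VCX3B, and there 2 of 25 members passed, GAGE2A higher and MAGEA1 lower, against 0.247% of all genes (0.13% higher and 0.117% lower). The 2 comparisons with Top10 and those with parental cells share libraries, so that they are not separate observations.

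Parental, Top10 and Bottom10 negative cells had low VCX levels. VCX2 read 5.32, 5.87 and 4.84 CPM in the parental negative libraries and 5.16, 2.86 and 2.6 CPM in the Top10 negative libraries and 7.58, 7 and 7.97 CPM in the Bottom10 negative libraries. VCX3A read 4.74, 3.65 and 2.98 CPM in the parental negative libraries and 2.95, 2.36 and 1.58 CPM in the Top10 negative libraries and 4.35, 3.48 and 5.24 CPM in the Bottom10 negative libraries. VCX read 2.1, 3.44 and 2.14 CPM in the parental negative libraries and 2.6, 1.18 and 1.78 CPM in the Top10 negative libraries and 3.45, 2.55 and 3.9 CPM in the Bottom10 negative libraries. Each Bottom10 negative library was above each Top10 negative library, except that VCX in Bottom10 negative 2 (2.55 CPM) lay just under Top10 negative 1 (2.6 CPM), a library that stood apart. VCX3B read 15.2, 9.95 and 8.56 CPM in the parental negative libraries and 9.63, 8.62 and 5.8 CPM in the Top10 negative libraries and 14.8, 17.7 and 12.1 CPM in the Bottom10 negative libraries. Bottom10 against Top10 negative cells gave log2 fold changes of 0.82 to 1.08, none past the threshold. With the replicate number as a block, which the replicates of these groups follow, and only these groups in the fit, all 4 passed (0.86 ± 0.26 SE to 1.13 ± 0.23, adjusted p from 0.0039 to 0.0496, the latter for VCX). With the block in the fit of all groups none of the 4 passed, and with the block in the 4 groups of 10 rounds VCX2 (adjusted p = 0.0485) and VCX3B (0.0321) did. Without the 6 libraries that stood apart, and with no block, VCX2 passed (1.45, adjusted p = 0.00169). In edgeR the difference of the crossing effect between the sorts was 2.25 ± 0.58 SE for VCX3A (adjusted p = 0.998) and 2.35 ± 0.79 for VCX2 (adjusted p = 0.998). No member passed that test, nor did any of the 15381 genes (0%), and at an unadjusted p under 0.05 edgeR gave 5 members and DESeq2 called 0.

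**Figure D3:**
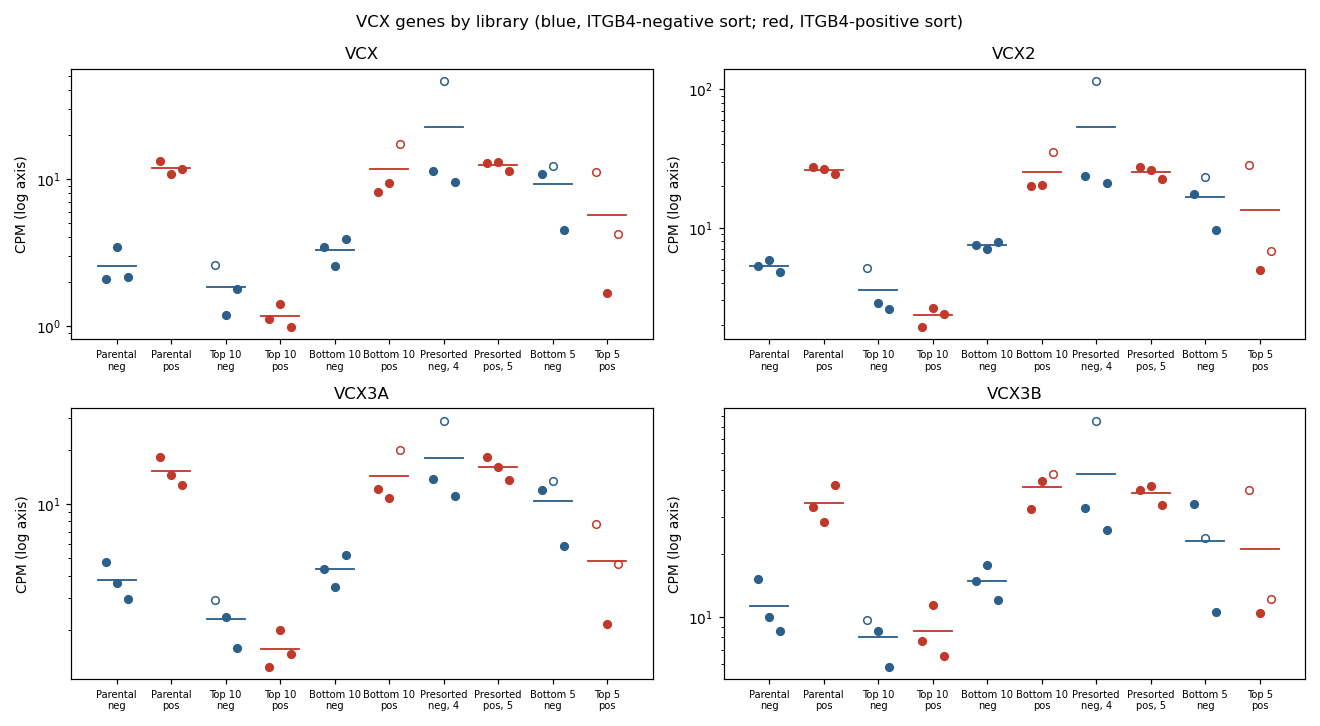
CPM (y axis, log scale) of VCX, VCX2, VCX3A and VCX3B in the 30 libraries, by group on the x axis; points are libraries in the order of replicates 1 to 3, open where the library is 1 of the 6 that stood apart, and lines are group means (n = 3). In each panel the Top10 positive points are the lowest or among the lowest, and the parental, Bottom10 and presorted positive points lie several-fold higher.

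In parental cells, before any crossing, all VCX genes read higher in the positive sort, but none passed the test. Their sum did not pass either (log2 fold change 1.94 ± 0.48 SE, adjusted p = 0.145). Parental positive cells had summed VCX levels of 88 ± 6.72 CPM (SD, n = 3) and parental negative cells of 22.9 ± 4.42, with no overlap for any of the 4 genes. The log2 fold changes were 2.00 ± 0.41 SE for VCX3A (adjusted p = 0.0578), 2.29 ± 0.56 for VCX2 (0.14), 2.21 ± 0.57 for VCX (0.207) and 1.63 ± 0.47 for VCX3B (0.305). No member passed in edgeR, against 0.0585% of all genes. An unadjusted p under 0.05 was found for 8 of 25, against 8.2% of the tests over all genes and comparisons. DESeq2 called 4 (SPANXB1, VCX, VCX2 and VCX3A), and edgeR without the 6 libraries, none of them parental, called the same 4 names. After 10 rounds summed VCX was 92.5 ± 24.8 CPM in Bottom10 positive and 30 ± 0.75 in Bottom10 negative cells, and 13.6 CPM in Top10 positive and 15.7 in Top10 negative cells. Without a block no member passed in either comparison: in Bottom10 cells 6 had an unadjusted p under 0.05 and DESeq2 called 1, VCX3A, against 0% of all genes in edgeR, and in Top10 cells the counts were 3 and 0, against 0.013%. With the replicate block and only these groups in the fit the 4 VCX genes were higher in Bottom10 positive than negative cells, the 4 members that passed (16% against 0.338% of all genes, 0.208% higher), by 2.79-fold to 3.43-fold with adjusted p from 0.019 to 0.0264. With the block in the fit of all groups none passed, and without the 6 libraries VCX2 did (1.42, adjusted p = 0.0155). In Top10 cells the blocked fit passed none of the 25, against 0.189% of all genes.

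Presorted negative cells, which crossed for 4 rounds, had high VCX. They read 23.5, 115 and 21.2 CPM of VCX2, 13.7, 28.9 and 11.1 of VCX3A, 11.4, 46.5 and 9.59 of VCX and 32.8, 85.6 and 25.8 of VCX3B. Each of these values was above each parental negative value, and replicate 2, which stood apart, was highest by a wide margin. All 4 were called higher than in parental negative cells, VCX2 by 9.91-fold (log2 fold change 3.31 ± 0.58 SE, adjusted p = 0.00395) and VCX3A by 4.7-fold (log2 fold change 2.23 ± 0.41 SE, adjusted p = 0.00516). In this comparison 7 of 25 members passed, all higher (28% against 2% of all genes, 0.904% higher; median log2 fold change 0.85 against 0.01): the 4 VCX genes, SPANXB1, PAGE1 and MAGEA10. Without presorted negative 2 the count was 4, with VCX2 at 2.06, VCX3A at 1.71, VCX at 2.03 and SPANXB1 still called, while VCX3B (2.09 to 1.38), PAGE1 (2.53 to 0.876) and MAGEA10 (0.85 to 0.486) lost the call. Without parental negative 1, 2 or 3 the counts were 3, 4 and 4: VCX3B, PAGE1 and MAGEA10 lost the call each time (1.93 to 2.37, 2.16 to 2.94 and 0.805 to 0.919) and VCX without parental negative 1 (3). Without all 6 libraries that stood apart 5 passed, MAGEA10 (0.471, adjusted p = 0.0219) as well. In a fit of these 2 groups alone none of the 25 passed. With near-identical copies summed, 4 of 20 tested members passed in the fit of all groups.

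The remaining VCX groups fell between these levels. Presorted positive cells, after 5 rounds, read 27.5, 26 and 22.7 CPM of VCX2, 18.1, 16.1 and 13.6 of VCX3A, 12.9, 13 and 11.3 of VCX and 40, 41.8 and 34.1 of VCX3B, inside or close to the parental positive range. None of the 25 members passed against parental positive cells (0.039% of all genes), with 2 at an unadjusted p under 0.05 and none by DESeq2. Bottom5 negative cells read 17.6, 23.3 and 9.62 CPM of VCX2, 12, 13.4 and 5.88 of VCX3A, 10.8, 12.3 and 4.49 of VCX and 34.5, 23.7 and 10.6 of VCX3B. All of these values but VCX3B in replicate 3 were above each parental negative library. SPANXB1 was the 1 member that passed there, higher (4% against 0.858% of all genes, 0.267% higher), and with the replicate block in these 2 groups 5 members passed, all higher (20% against 3.13%, 0.936% higher): VCX, VCX2, VCX3A, MAGEB2 and SPANXB1. With the block in the fit of all groups SPANXB1 alone passed. Without the 6 libraries, VCX (1.55), VCX2 (1.33) and MAGEA10 (0.482) passed and SPANXB1 did not (2.86, adjusted p = 0.0581). Top5 positive cells read 28.3, 5 and 6.86 CPM of VCX2, 7.7, 2.16 and 4.64 of VCX3A, 11.1, 1.67 and 4.23 of VCX and 40.2, 10.4 and 12.2 of VCX3B, where replicates 1 and 3 stood apart and replicate 2, the low one, did not. No member passed against parental positive cells (0.163% of all genes), with 7 at an unadjusted p under 0.05 and 1, VCX3A, by DESeq2. Without Top5 positive 2 the count was 2, CTAG2 and PAGE2, both higher. Without the libraries that stood apart, which leaves Top5 positive 2 as the only library of its group and takes the spread from the other groups, VCX (-2.83), VCX2 (-2.39) and VCX3A (-2.81) were lower.

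SPANXB1 codes for a protein of the nucleus of sperm cells, from a family of X-linked copies, and was a gene of few counts. Its lowest group sums were 2 counts in Top10 negative, 10 in parental negative and 14 in Top10 positive cells. It read 0, 0.0907 and 0 CPM in the Top10 negative libraries and 0.678, 0.995 and 0.693 CPM in the Bottom10 negative libraries. SPANXB1 read 0.215, 0.301 and 0.148 CPM in the Top10 positive libraries and 1.23, 1.31 and 2.26 CPM in the Bottom10 positive libraries. The Top10 negative libraries held 2 counts together and the Bottom10 negative libraries 58, a ratio of 26.5 with a 95% counting interval of 7 to 224. Bottom10 was higher in both sorts (negative, log2 fold change 4.43 ± 0.83 SE, adjusted p = 0.00427; positive, log2 fold change 2.82 ± 0.64 SE, adjusted p = 0.0282). Parental cells read 0.234, 0.159 and 0.169 CPM in negative and 2.66, 2.33 and 0.78 CPM in positive cells, a difference that missed the threshold (adjusted p = 0.0561), and Top10 positive cells were 8.48-fold lower than parental positive ones (adjusted p = 0.0236). After 4 and 5 rounds it read 3.3, 2.83 and 1.35 CPM in the presorted negative libraries and 4.48, 1.83 and 2.78 CPM in the presorted positive libraries. SPANXB1 read 0.989, 2.52 and 1.79 CPM in the Bottom5 negative libraries and 0.401, 0.123 and 0.807 CPM in the Top5 positive libraries. Against parental negative cells it was called higher in presorted (12.9-fold, adjusted p = 0.00401) and in Bottom5 negative cells (9.24-fold, adjusted p = 0.018), where all 6 libraries were above all 3 parental ones. In Top10 negative cells 2 libraries were at 0, and without replicate 2, which held both counts, the fitted change in the negative sort was 7. Counted together with all other SPANX genes, SPANXA2-OT1 and the SPANXN genes included, the change in the negative sort was 3.08 (adjusted p = 0.0224). The sum did not pass in Bottom10 against Top10 positive cells (1.89, adjusted p = 0.206) or in Top10 against parental positive cells (-2.09, adjusted p = 0.167). Against parental negative cells it passed in presorted (3.45, adjusted p = 0.00749) and Bottom5 negative cells (3.04, adjusted p = 0.0268). The SPANXB1 call in Bottom10 against Top10 negative cells held without each of the 6 libraries in turn. That in Bottom5 negative cells was lost without any 1 of parental negative 1, 2 and 3 and Bottom5 negative 2 and 3 (2.88 to 3.39). That in Bottom10 against Top10 positive cells was lost without the 6 libraries that stood apart (2.48, adjusted p = 0.0696) and without any Top10 positive library or Bottom10 positive 2 or 3 (2.49 to 3.09), and that in Top10 against parental positive cells without any Top10 positive library or parental positive 1 or 2 (-3.37 to -2.77).

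GAGE2A and GAGE1 were the GAGE genes that could be tested, and their windows before the start were the same in all 250 bases, as were 9 of the 13 GAGE windows in the table. GAGE proteins are small acidic antigens of germ cells. GAGE2A read 0.217, 0.0454 and 0.0509 CPM in the Top10 negative libraries and 1.53, 1.23 and 0.953 CPM in the Bottom10 negative libraries. GAGE2A read 0.215, 0.2 and 0.148 CPM in the Top10 positive libraries and 2.01, 2.27 and 2.74 CPM in the Bottom10 positive libraries. All 6 Bottom10 values were above all 6 Top10 values, and GAGE2A was called higher in Bottom10 negative (11-fold, log2 fold change 3.46 ± 0.72 SE, adjusted p = 0.0102) and Bottom10 positive cells (12.1-fold, log2 fold change 3.59 ± 0.68 SE, adjusted p = 0.00747). Unlike the VCX genes, it was low in parental cells of both sorts (0.117, 0.317 and 0.225 and 0.379, 0.106 and 0.156 CPM), so that Bottom10 positive cells were also above parental ones (log2 fold change 3.38 ± 0.67 SE, adjusted p = 0.0217). It read 0.279, 1.3 and 0.487 CPM in the presorted negative libraries and 0.502, 0.108 and 0.0567 CPM in the presorted positive libraries. GAGE2A read 0.247, 0.721 and 0.449 CPM in the Bottom5 negative libraries and 0.561, 0.185 and 0.538 CPM in the Top5 positive libraries. Presorted negative 2 and 3, presorted positive 1, Bottom5 negative 2 and 3 and Top5 positive 1 and 3 lay above all 6 parental libraries, and presorted negative 2, Bottom5 negative 2 and the Top5 positive pair are libraries that stood apart. For GAGE1 the log2 fold changes in Bottom10 against Top10 were 0.47 ± 0.48 SE in negative and 1.18 ± 0.47 in positive cells, neither past the threshold. Counted as 1 gene, the GAGE copies passed in the positive sort (1.82 ± 0.43 SE, adjusted p = 0.0399) and not in the negative sort (1.23, adjusted p = 0.236) or in Bottom10 positive against parental cells (0.993). The call against parental positive cells was lost without any 1 of its 6 libraries (3.09 to 4.07), that against Top10 positive cells without Top10 positive 1 or 3 (3.45 and 3.7) and that against Top10 negative cells without Top10 negative 2 or 3 (3.11 and 3.16). The change in negative cells was 4.51 without the 6 libraries that stood apart (adjusted p = 0.0115).

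CTAG2, which codes for LAGE-1, the nearest relative of NY-ESO-1, went the other way and was highest in cells that stayed. It read 1.43, 1.45 and 0.865 CPM in the Top10 negative libraries and 0.452, 0.564 and 0.433 CPM in the Bottom10 negative libraries. CTAG2 read 1.55, 1.3 and 1.33 CPM in the Top10 positive libraries and 0.112, 0.354 and 0.205 CPM in the Bottom10 positive libraries. Each Top10 value was above each Bottom10 value in both sorts, and in the positive sort Bottom10 was 6.02-fold lower (log2 fold change -2.59 ± 0.58 SE, adjusted p = 0.0273). Parental cells read 0.175, 0.212 and 0.338 and 0.228, 0.318 and 0.156 CPM in the negative and positive sort, so that Top10 positive cells were 5.92-fold above parental ones (log2 fold change 2.57 ± 0.56 SE, adjusted p = 0.0426). In Top10 negative against parental negative cells the log2 fold change of 2.34 did not pass (adjusted p = 0.212). In that comparison edgeR passed no member, against 0.0455% of all genes, with 3 at an unadjusted p under 0.05, and DESeq2 called 1, CTAG2. It read 0.0398, 0.306 and 0.262 CPM in the presorted negative libraries and 0.0772, 0.215 and 0.17 CPM in the presorted positive libraries. CTAG2 read 0.124, 0.463 and 0.349 CPM in the Bottom5 negative libraries and 0.962, 0.308 and 1.34 CPM in the Top5 positive libraries. Top5 positive cells, which also stayed on the upper side, held the 2 highest values outside Top10, in the libraries that stood apart. Both calls rest on at most 1.55 CPM in a library and were lost without any 1 of the 6 libraries compared (-3.11 to -2.27 against Top10 and 2.34 to 2.82 against parental cells). The difference from Top10 did not pass without the 6 libraries that stood apart (-2.55, adjusted p = 0.0631).

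MAGEA1, the first tumour antigen of the MAGE family to be cloned by its recognition by T cells, was highest in the parental positive cells. It read 35.4, 42.4 and 23.8 CPM in the parental positive libraries and 3.65, 4.21 and 4.33 CPM in the Top10 positive libraries and 7.88, 5.56 and 11.1 CPM in the Bottom10 positive libraries. The 3 groups did not overlap, and both crossed and uncrossed cells were lower than parental ones: Top10 positive by 8.33-fold (log2 fold change -3.06 ± 0.37 SE, adjusted p = 4.72e-05) and Bottom10 positive by 4.15-fold (log2 fold change -2.05 ± 0.35 SE, adjusted p = 0.00886). In the negative sort it read 9.35, 18.6 and 19.7 CPM in the parental negative libraries and 13.4, 7.94 and 11.8 CPM in the Top10 negative libraries and 8.37, 5.93 and 8.92 CPM in the Bottom10 negative libraries, where Top10 overlapped the parental cells, Bottom10 lay below them, and neither change passed. It read 13.7, 31.4 and 17.2 CPM in the presorted negative libraries and 20.1, 19.5 and 21.5 CPM in the presorted positive libraries. MAGEA1 read 8.78, 20.4 and 15.3 CPM in the Bottom5 negative libraries and 16.5, 14.1 and 22.7 CPM in the Top5 positive libraries. In parental cells each positive library was above each negative one and in Top10 cells each positive library was below each negative one. The difference between the sorts in the Top10 against parental change was -2.53 ± 0.49 SE on the log2 scale, with an unadjusted p of 2.97e-05 and an adjusted p of 0.456. Neither it nor any other of the 15381 genes passed in edgeR (0%; 5 members at an unadjusted p under 0.05), and DESeq2 called it (adjusted p = 0.011). VCX2 passed that test without the 6 libraries that stood apart (-2.52, adjusted p = 0.000818). The difference between the sorts in the Bottom10 against parental change passed for no member (0% of all genes), with 2 at an unadjusted p under 0.05 and 0 by DESeq2. The call against parental cells was kept without each of 6 libraries in Top10 positive cells and lost without parental positive 2 or Bottom10 positive 1 or 2 in Bottom10 positive cells (-2.03 to -1.84).

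**Figure D4:**
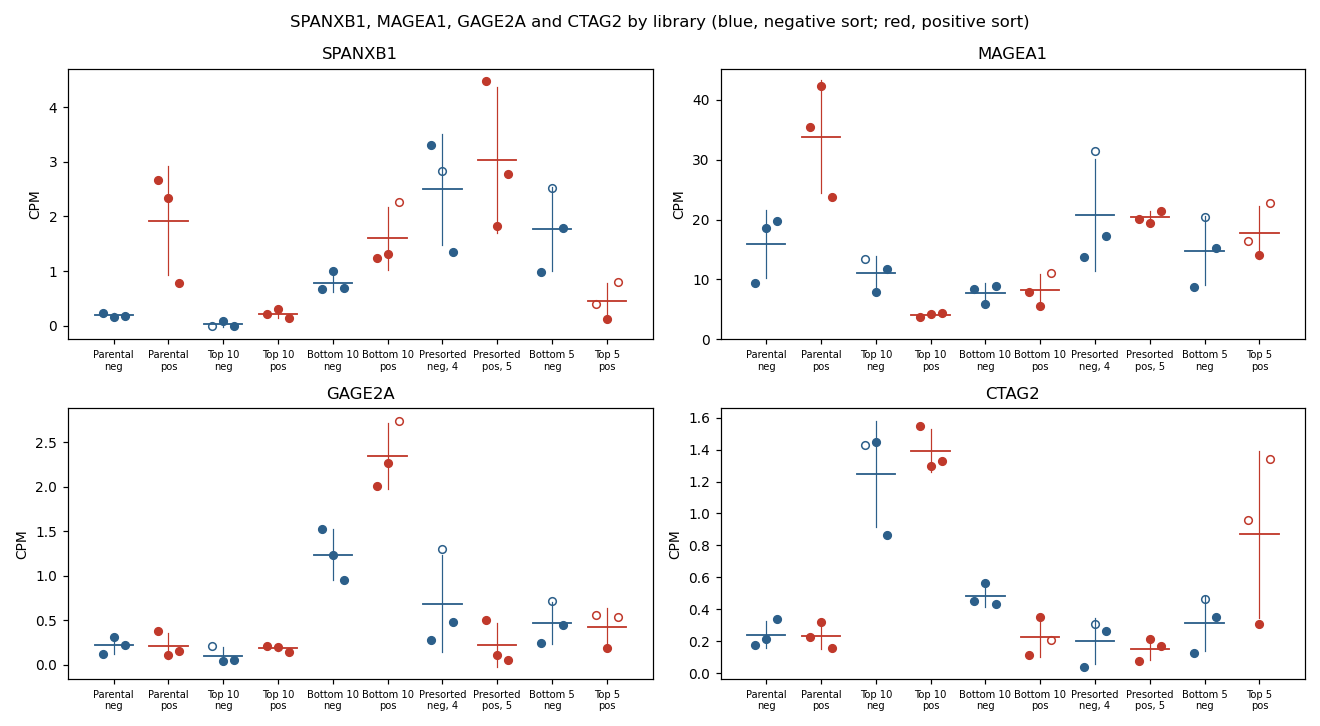
CPM (y axis, linear) of SPANXB1, MAGEA1, GAGE2A and CTAG2 in the 30 libraries, by group on the x axis; points are libraries in the order of replicates 1 to 3, open where the library is 1 of the 6 that stood apart, horizontal lines are group means and vertical lines ± 1 SD (n = 3). GAGE2A is highest in Bottom10 cells of both sorts, CTAG2 in Top10 cells of both sorts and MAGEA1 in parental positive cells.

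PAGE1 and MAGEA10 each passed in 1 comparison, presorted against parental negative cells. PAGE1 read 0.234, 0.899 and 0.676 CPM in the parental negative libraries and 0.995, 8.64 and 1.24 CPM in the presorted negative libraries. PAGE1 read 2.09, 2.12 and 0.936 CPM in the parental positive libraries and 1.58, 1.94 and 2.32 CPM in the presorted positive libraries. It read 0.477, 0.408 and 0.305 CPM in the Top10 negative libraries and 0.905, 1.16 and 1.34 CPM in the Bottom10 negative libraries. PAGE1 read 0.559, 0.551 and 0.541 CPM in the Top10 positive libraries and 2.52, 2.83 and 3.28 CPM in the Bottom10 positive libraries. In both sorts each Bottom10 value was above each Top10 value, a difference that missed the threshold without a block and passed with the replicate block in the compared groups (negative, 1.49 ± 0.41 SE, adjusted p = 0.0305; positive, 2.37 ± 0.30, adjusted p = 0.0155). In the positive sort it also passed by DESeq2 (2.38, adjusted p = 0.0111) and without the 6 libraries that stood apart (2.25, adjusted p = 0.0107). After 5 rounds it read 1.42, 2.42 and 1.5 CPM in the Bottom5 negative libraries and 1.68, 0.925 and 2.22 CPM in the Top5 positive libraries. The call in presorted negative cells (log2 fold change 2.53 ± 0.61 SE, adjusted p = 0.0317) rests on the 8.64 CPM of replicate 2. MAGEA10, the most abundant member with a call, read 42.4, 37.8 and 36.3 CPM in the parental negative libraries and 54.7, 102 and 53.7 CPM in the presorted negative libraries. MAGEA10 read 49.4, 50.6 and 48.3 CPM in the parental positive libraries and 54.3, 55.1 and 55.1 CPM in the presorted positive libraries. MAGEA10 read 45.4, 43.8 and 37.7 CPM in the Top10 negative libraries and 47.1, 48.9 and 43.1 CPM in the Top10 positive libraries. Its other values were 55.8, 57 and 56.7 CPM in the Bottom10 negative libraries and 59.4, 55.8 and 67.6 CPM in the Bottom10 positive libraries. MAGEA10 read 57.7, 65.7 and 51.8 CPM in the Bottom5 negative libraries and 73.4, 39.4 and 47.2 CPM in the Top5 positive libraries. The presorted negative libraries lay above the parental negative ones (log2 fold change 0.85 ± 0.21 SE, adjusted p = 0.0324), with replicate 2 again the highest. Without the 6 libraries that stood apart, MAGEA10 also passed as higher in Bottom10 negative than in Top10 (0.463, adjusted p = 0.0327) and parental negative cells (0.53, adjusted p = 0.00795).

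In the Bottom10 against Top10 comparisons, whose same-numbered replicates deviated together, the counts depended on the block and on the groups in the fit. The fit of all groups gave 2 calls in negative and 7 in positive cells without a block and 3 and 8 with it. Fits of only the compared groups gave 1 and 5 without a block, and for either change alone the share of all genes is not given. With both, 11 of 25 members passed in the negative sort, 10 higher and 1 lower (44% against 11.1% of all genes, 6.12% higher and 5.01% lower), and in the positive sort 9, 8 higher and 1 lower (36% against 3.73%, 1.93% higher and 1.79% lower). MAGEB2, which binds RNA of stress granule components in germ cells, passed in both: it read 0.607, 0.136 and 0.865 CPM in the Top10 negative libraries and 2.32, 3.61 and 2.73 CPM in the Bottom10 negative libraries. MAGEB2 read 0.258, 0.451 and 0.787 CPM in the Top10 positive libraries and 1.45, 2.78 and 4.04 CPM in the Bottom10 positive libraries. Bottom10 was above Top10 in 3 of 3 pairs in either sort (2.46 ± 0.43 SE, adjusted p = 0.00206, and 2.47 ± 0.31, adjusted p = 0.0146). MAGEC1 and SSX1 passed in the negative sort (2.07 ± 0.51 SE, adjusted p = 0.0174, and 1.34 ± 0.41, adjusted p = 0.0499), each higher in 3 of 3 pairs. CTAG2 was the member that passed downwards in the negative sort (-1.34 ± 0.37 SE, adjusted p = 0.0325). Without a block the 7 calls of the positive sort became 3 without Top10 positive 1 or 3 and 4 without Bottom10 positive 2 or 3, and the 2 of the negative sort became 1 without Top10 negative 2. The 6 calls in Top10 against parental positive cells became 2 without Top10 positive 1 and 3 without Top10 positive 2 or 3, and the 2 in Bottom10 against parental positive cells became 0 or 1 without any library of the 2 groups. Bottom10 against parental negative cells passed 0 of 25 members, against 0.325% of all genes, with 6 at an unadjusted p under 0.05 and 1, GAGE2A, by DESeq2.

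RNA of other genes was followed in 4 lists: DNA methylation, partners of the antigens, MAGE genes that most tissues express, and further cancer-testis genes. Methylation of DNA and protein were not measured. Of 20 genes of DNA methylation and its removal, 18 could be tested, and none passed in any comparison. In these 234 tests of a gene in a comparison, edgeR gave 6 at an unadjusted p under 0.05 and DESeq2 called 0. DNMT1, the maintenance methyltransferase, ranged from 178 to 544 CPM over the libraries. Of 18 genes for ubiquitin ligase and chromatin partners of MAGE, PRAME and SSX proteins, all could be tested and none passed (15 of 234 at an unadjusted p under 0.05, 0 by DESeq2). Of 13 symbols listed for MAGE genes that most tissues express, NDNL2 and NSMCE3 name the same gene. Of these symbols 12 had a row of counts and 8 could be tested. TRO and NDN gave 5 calls in 104 tests (4.81%, against 0.493% of such tests over all genes), with 20 at an unadjusted p under 0.05 and 6 by DESeq2. TRO (trophinin) was lower in parental positive than negative cells (1.44 ± 0.0674 against 4.69 ± 1.86 CPM, adjusted p = 0.0262) and lower than these in presorted and Bottom5 negative cells (1.36 ± 0.241 and 1.15 ± 0.293 CPM, adjusted p = 0.00395 and 0.00209). NDN (necdin, a growth suppressor of neurons) was higher in Bottom10 positive than parental positive cells (21.4 ± 7.65 against 7.72 ± 1.5 CPM, adjusted p = 0.0402) and lower in Bottom5 than parental negative cells (6.54 ± 2.15 against 16 ± 3.56 CPM, adjusted p = 0.0484).

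A list of further cancer-testis genes outside the families held 66 symbols, in which CT55 and CT83 also stood under former names. Of these symbols 63 had a row of counts and 18 could be tested. CT55 alone, 1 of the 18, passed, in 6 of 234 tests (2.56%, against 0.493% over all genes), with 36 at an unadjusted p under 0.05 (15.4%, against 8.2% over all genes). CT55, an X-linked gene of male germ cells, read 0.65, 0.454 and 0.407 CPM in the Top10 negative libraries and 2.71, 2.98 and 2.25 CPM in the Bottom10 negative libraries. CT55 read 0.902, 0.852 and 0.639 CPM in the Top10 positive libraries and 2.46, 3.03 and 2.39 CPM in the Bottom10 positive libraries. Bottom10 was above Top10 without overlap in both sorts (log2 fold change 2.38, adjusted p = 0.00345, and 1.71, adjusted p = 0.0489). Parental cells read 1.17, 1.11 and 1.3 CPM in negative and 3.83, 5.14 and 3.28 in positive cells, and Top10 positive cells were lower than the latter (-2.34, adjusted p = 0.00765). Presorted and Bottom5 negative cells were called higher than parental negative ones (1.68, adjusted p = 0.0339, and 2.06, adjusted p = 0.0161). The presorted negative libraries read 5.49, 0.994 and 4.83 CPM, so that replicate 2, which stood apart, lay below every parental negative library. CT55 read 3.65, 5.77 and 5.58 CPM in the Bottom5 negative libraries. Top5 positive cells, at 0.561, 1.23 and 0.605 CPM, were below parental positive ones (-2.33, adjusted p = 0.0226). DESeq2 called 9 of the 234 tests in this list.

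Of the 25 tested members 23 lie on the X chromosome, PRAME on chromosome 22 and SSX2IP on chromosome 1. The 512 other X-linked genes tested passed at 1.17% in Bottom10 against Top10 positive cells (6 higher), 1.76% in the negative sort, 1.17% in Top10 against parental positive cells (6 lower) and 1.76% in presorted against parental negative cells. Their median log2 fold changes in these comparisons, in that order, were 0.074, 0.0046, -0.053 and 0.059. Next to the 10 called members lie 36 other tested genes (3 on each side in the order of the RefSeq GRCh38.p14 table), and 4 of 102 pairs of neighbour and comparison passed. In the comparisons that enter these pairs, 0.247 to 2% of all genes passed. LDOC1, the gene after SPANXB1, accounted for 3 of them: it was higher in Bottom10 than Top10 cells in the negative (1.28 ± 0.27 SE, adjusted p = 0.0122) and positive sort (1.53 ± 0.27, adjusted p = 0.00435) and lower in Top10 than parental positive cells (-1.25 ± 0.27, adjusted p = 0.0415), in the direction of SPANXB1 each time. The other was MPP1 near CTAG2, lower in Top10 than parental positive cells (-0.68, adjusted p = 0.0314), where CTAG2 was higher. The LDOC1 calls in the positive sort share the Top10 positive libraries.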

How the data were processed

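The authors deposited 1 table of raw counts of reads per gene for each of the 30 libraries, made with STAR, HTSeq and DESeq on hg19 per the submitters' processing notes. Versions, annotation and the strand setting are not given in the sources used here, so reads of overlapping genes may be mixed. The rows that name no gene (22.1 to 31.8% of reads) were left out. Of 26364 genes, 15381 passed the filter of edgeR 4.0.16 (filterByExpr, minimum count 10, minimum total 15). Counts were scaled by TMM and tested with edgeR's quasi-likelihood test in 1 fit of all 10 groups (R 4.3.3), with Benjamini-Hochberg adjustment over all genes and a threshold of 0.05. There were 13 comparisons and 3 interaction terms. SE is the log2 fold change divided by the square root of F, and CPM use the TMM-scaled library size. The 95% interval of a ratio of counts covers counting error only, as does the floor of 3 counts for a gene at 0, and PCR copies were not removed by molecular identifiers.

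Values in every library are given for each member with a call and for the 8 most abundant, and the others by range or by name. The members and all gene lists were chosen with earlier results of these data known. Alternatives were DESeq2 1.42.0, RLE factors, no filter, a replicate block, fits of the compared groups alone, near-identical copies summed, and each library left out. For SPANX, GAGE and VCX the sum took the whole family. No 2 libraries of a group agreed within sampling noise (lowest chi-square per degree of freedom 11.6). The titles number the replicates, and the labels state no pairing. Deviations from the group means correlated within every same-numbered pair in Bottom10 and Top10 negative (0.406, 0.629 and 0.692), Bottom10 and Top10 positive (0.265, 0.573 and 0.547), the 2 Top10 groups (0.314, 0.708 and 0.791), the 2 Bottom10 groups (0.278, 0.549 and 0.589) and Bottom5 and parental negative cells (0.59, 0.379 and 0.415), and not within every pair in the other comparisons. In presorted and parental negative cells the values were 0.359, 0.0297 and 0.299, of which the second fell below the cut set for these correlations. For the 5 comparisons that met the cut the blocked values come from a fit of the compared groups. These 5 were thus chosen from the same data that were tested.

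Windows of 250 bases before gene starts came from RefSeq on GRCh38.p14, in which 66 of the 92 members matched by symbol, 22 of them tested. For the order along chromosomes, 14139 of the 15381 tested genes were found under their current symbol and 945 more under a former one. Coordinates of the authors' build were not used. Exon lengths were the union of the exons of a gene in GENCODE.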

Additional observations from a re-analysis of the deposited data

How the results depend on the processing

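No member that was called changed direction under any alternative. Of the 25 calls, DESeq2, RLE factors and a replicate block over all groups kept 25 each, no filter 24, copies summed 21 and fits of only the compared groups 10, with or without a block. The block over the 4 groups of 10 rounds and the fit without the 6 libraries that stood apart were chosen after seeing the data, as were the interactions against parental cells. They kept 9 of 9 and 20 of 25. The cause of the changes below was not tested, except that fewer libraries or genes entered the fits of the compared groups, of summed copies and with libraries left out.

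Counts of members called that moved by more than 1.5 times, or from or to 0, were, with DESeq2, 4 in Bottom10 against Top10 negative cells, 1 each in Bottom10 and in Top10 against parental negative cells, 4 between the parental sorts, 1 between the Bottom10 sorts, 3 in Bottom5 negative cells, 1 in Top5 positive cells and 1 in the Top10 by sort interaction. No filter and the replicate block over all groups each gave 2 between the parental sorts. Only the compared groups gave 1 in Bottom10 against Top10 negative cells, 1 between the parental sorts, and 0 in Bottom10 against parental positive, presorted negative and Bottom5 negative cells. With the replicate block as well, the counts were 11 in Bottom10 against Top10 negative cells, 4 between the Bottom10 sorts, 5 in Bottom5 negative cells, and 0 in Bottom10 and Top10 against parental positive and in presorted negative cells. In comparisons whose replicates do not deviate together, this loss says nothing about size. Copies summed (20 tested) gave 1 in Bottom10 against Top10 negative and 3 in positive cells, 1 and 3 in Bottom10 and Top10 against parental positive cells, and 4 in presorted negative cells. The replicate block over the 4 groups of 10 rounds gave 8 and 11 in Bottom10 against Top10 negative and positive cells, 1 between the Top10 sorts (MAGEA1) and 5 between the Bottom10 sorts. Without the 6 libraries the counts were 4 in Bottom10 against Top10 negative cells, 1 in Bottom10 against parental negative cells, 4 between the parental sorts, 1 between the Bottom10 sorts, 3 each in Bottom5 negative and Top5 positive cells and 1 in the Top10 by sort interaction (VCX2). The Top5 positive group then holds 1 library, which is assumed to vary like the other groups. Smaller moves, in Bottom10 against Top10 positive (7 calls) and Top10 against parental positive cells (6 calls), were to 9 and 7 with DESeq2, 8 and 7 with the block over all groups, 6 and 7 without the 6 libraries and 5 and 4 with only the compared groups, and to 9 in the former with the replicate block as well. The block over all groups gave 3 in Bottom10 against Top10 negative cells, and presorted negative cells had 5 without the 6 libraries.

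With each library left out the counts ran from 1 to 2 in Bottom10 against Top10 negative cells, 3 to 6 in positive cells, 0 to 1 in Bottom10 and 2 to 5 in Top10 against parental positive cells, 3 to 7 in presorted negative cells, 0 to 1 in Bottom5 negative cells, 0 to 1 between the parental sorts and 0 to 2 in Top5 positive cells. The other comparisons stayed at 0. Depth limits SPANXB1, GAGE2A and CTAG2, where 1 count is worth up to 0.0802 CPM.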

Other observations

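MAGEA2, whose near copy MAGEA2B had no count, read 0.0764 CPM in presorted negative 2 and 0.24 CPM in Top5 positive 1, against 2.63 CPM or more in the other 28 libraries. These are the 2 libraries in which the largest share of reads matched more than 1 place (12.6 and 13.3%). MAGEB2 read 0.841 CPM in presorted negative 2 against 6.89 and 6.93 CPM in the other two, and 0.808 CPM in presorted positive 2 against 6.57 and 5.84 CPM. The part of either value in the results was not tested.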
